A study of Solanum lycopersicum with 8 samples.

Results

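SBP-box genes encode plant transcription factors, also called SPLs, that were followed here in inflorescence meristems of 2 tomato mutants. The 10 genes were chosen by family, as a list of SBP-box IDs, and all of them were present among the 34109 genes of the deposited table. Meristems were dissected from 8-week-old plants of *ej2* *j2*, mutated in the *SEPALLATA* MADS-box paralogues *EJ2* and *J2*, and of *plt3* *plt7*, mutated by CRISPR–Cas9 in the *PLETHORA* paralogues *PLT3* and *PLT7*. There were 4 libraries per genotype. The meristems of both genotypes overproliferate, and no wild-type library was used here, so each value is set only against the other mutant. The methods describe biological replication, and the labels do not say which plants went into which library.

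SBP proteins bind DNA through a zinc-binding SBP domain, at sites with the core GTAC. Many SBP transcripts are targets of the microRNA miR156, which is abundant in young plants and declines with age. The resulting rise of SBP factors promotes the change from juvenile to adult growth and from vegetative growth to flowering, and in *Arabidopsis* their targets include MADS-box genes of flowering. In tomato the best known member is *CNR* (*COLORLESS NON-RIPENING*, Solyc02g077920), whose epigenetic silencing leaves fruits unable to ripen. The tables used here give a symbol for *CNR* alone (*SPL-CNR* on chromosome 2 of the RefSeq assembly SLM_r2.1), so the other 9 genes appear by ID and no individual role is given for them.

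Expression was measured as TPM, the length-scaled share of transcripts, which divides reads by transcript length and by the library total, so levels can be compared between genes. The SBP-box genes covered a wide range of levels, and 9 of the 10 had a mean of at least 1 TPM over the 8 libraries, the minimum for a test. Solyc05g015840 and Solyc03g114850 held the largest shares, together 48.8% to 72.9% of the summed SBP-box TPM in the *ej2* *j2* libraries and 61.6% to 88.6% in the *plt3* *plt7* libraries. The remaining gene, Solyc07g062980, was listed at 0 in 4 of the 8 libraries and reached at most 0.297 TPM. It was not tested. Read numbers cannot be recovered from TPM, so library depth is unknown and no counting error can be given. How the authors treated reads shared between paralogues, and with which strand setting, is not stated in these sources, so reads of the conserved SBP region or of an overlapping gene may have been assigned to either gene.

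**Figure D1:**
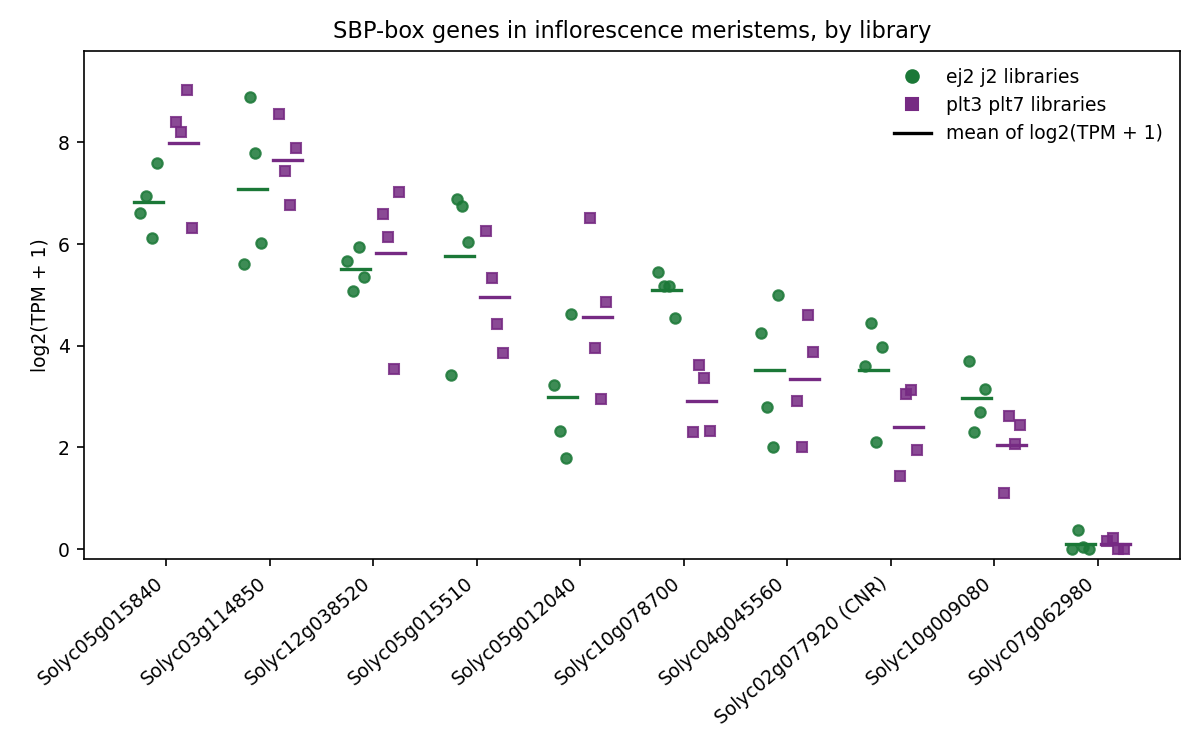
Levels of the 10 SBP-box genes as log2(TPM + 1) in each library, ordered by mean TPM over all libraries, with *ej2* *j2* as green circles, *plt3* *plt7* as purple squares and lines at the mean of 4 libraries. The libraries of both genotypes overlap for every gene except Solyc10g078700, for which all 4 *plt3* *plt7* libraries (3.93 to 11.3 TPM) lie below all 4 *ej2* *j2* libraries (22.4 to 42.8 TPM).

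The comparison asked which SBP-box genes differ between meristems mutated in the *SEP* pair and meristems mutated in the *PLT* pair. None of the 9 genes tested passed the threshold, and Solyc10g078700, lower in *plt3* *plt7*, came closest. Values were compared as log2(TPM + 1) with limma over all 19544 genes that averaged 1 TPM or more, and every difference is given as *plt3* *plt7* minus *ej2* *j2*. Across these genes 1.84% passed (limma, adjusted p under 0.05). At an unadjusted p under 0.05, 1 of the 9 SBP-box genes passed, against 13.8% of all genes tested. The 9 differences ran from -2.18 to 1.57 on the log2 scale, 5 below 0 and 4 above, with a median of -0.16, against a median of 0.05 over all genes tested. The spread between libraries was large, at a residual SD of 1.10 log2 units for the median gene, and the intervals of the individual genes below therefore include differences of several fold.

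Solyc10g078700 was expressed in every library and was the gene with the clearest separation. Its levels were 42.8, 35.2, 35.0 and 22.4 TPM in the *ej2* *j2* libraries, in replicate order, and 3.93, 11.3, 9.27 and 4.04 TPM in *plt3* *plt7*. The lowest *ej2* *j2* library thus stood above the highest *plt3* *plt7* library. The mean was 33.8 ± 8.46 TPM (SD, n = 4) in *ej2* *j2* and 7.14 ± 3.74 TPM (SD, n = 4) in *plt3* *plt7*, a ratio of 4.74. In such bulk samples fewer cells of a type and less RNA per cell cannot be told apart. On the log2(TPM + 1) scale the difference was -2.18 (standard error 0.88, 95% interval -3.92 to -0.45), with an unadjusted p = 0.0137 and an adjusted p = 0.200 from limma. An exact two-sided permutation test of this gene gave p = 0.0286, the smallest that 4 libraries against 4 allow. This p is not adjusted for the 9 genes tested in this way, of which Solyc10g078700 alone was under 0.05. It was 1 of the 9 tested genes (1 of the 10 in all) whose libraries did not overlap between genotypes, against 6.87% of all genes tested. Replicates were alike: the residual SD of 0.56 log2 units lay at the 3.85th percentile of all genes tested. The standard error of 0.88 mostly reflects genes of similar level. With the spread of this gene alone, a setting chosen after seeing the data, it was 0.39 (adjusted p = 0.186, limma).

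**Figure D2:**
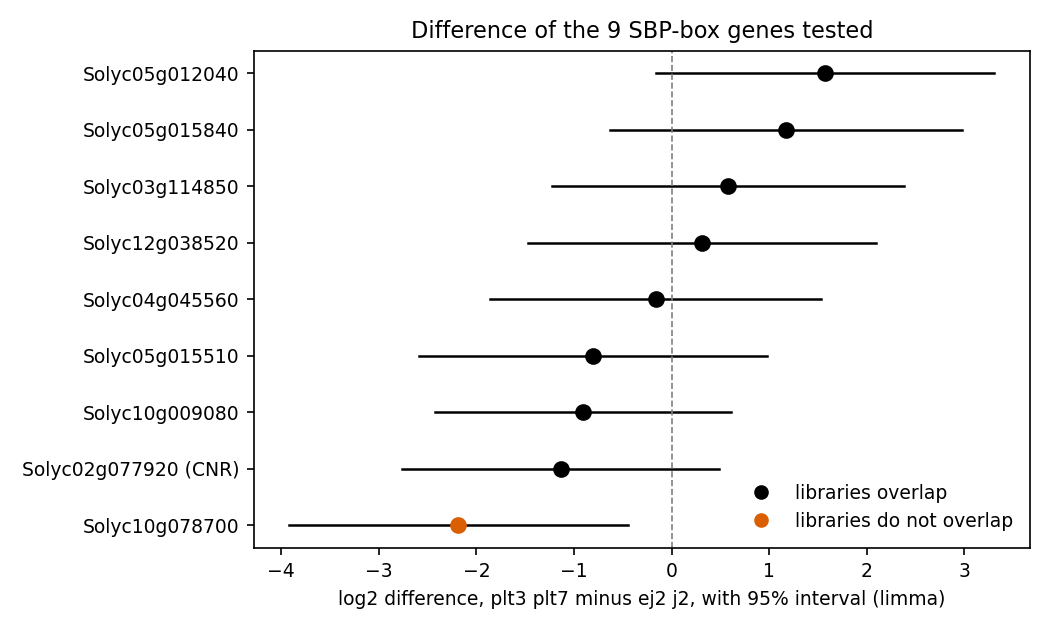
Difference of each of the 9 SBP-box genes tested, *plt3* *plt7* minus *ej2* *j2*, on the log2(TPM + 1) scale, with its 95% interval from limma. The orange point is the gene whose libraries do not overlap (Solyc10g078700, -2.18), and its interval of -3.92 to -0.45 is the only one that leaves out 0; the intervals are not adjusted for the number of genes.

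The *CNR* gene and Solyc10g009080 were among the less abundant SBP-box genes, and both had lower means in *plt3* *plt7* without passing the test. *CNR* was at 11.1, 20.8, 3.33 and 14.7 TPM in *ej2* *j2* and at 1.72, 7.30, 7.71 and 2.88 TPM in *plt3* *plt7*. The overlap came from *ej2* *j2* replicate 3, which lay below 2 of the *plt3* *plt7* libraries, while the other 3 stood above all 4. Its log2 difference was -1.14 (95% interval -2.76 to 0.48, adjusted p = 0.592, limma). Solyc10g009080 was at 12.04, 3.97, 5.48 and 7.83 TPM in *ej2* *j2* and at 1.15, 5.13, 3.19 and 4.42 TPM in *plt3* *plt7*, so that the groups overlapped between 3.97 and 5.13 TPM. Its log2 difference was -0.91 (95% interval -2.43 to 0.61, adjusted p = 0.678, limma).

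The 3 SBP-box genes on chromosome 5 by their IDs had unlike patterns. Solyc05g012040 was at 8.42, 4.04, 2.47 and 23.6 TPM in *ej2* *j2* and at 90.1, 14.6, 6.75 and 28.0 TPM in *plt3* *plt7*. The first and the fourth of these libraries exceeded every *ej2* *j2* library, the first by the widest margin, and the other two lay within the *ej2* *j2* range. The mean was 3.62 times higher in *plt3* *plt7*, with a log2 difference of 1.57 (95% interval -0.16 to 3.31, adjusted p = 0.431, limma), which became 0.93 without *plt3* *plt7* replicate 1. Solyc05g015840 ranked between 1 and 3 among the SBP-box genes of each library, at 96.8, 121.6, 68.4 and 192.9 TPM in *ej2* *j2* and at 338.6, 292.7, 524.5 and 78.5 TPM in *plt3* *plt7*. All *plt3* *plt7* libraries but replicate 4 stood above the highest *ej2* *j2* library. The log2 difference was 1.17 (95% interval -0.63 to 2.97, adjusted p = 0.634, limma). Solyc05g015510 ran the other way in its means, 74.5 ± 48.8 TPM in *ej2* *j2* and 37.2 ± 27.8 TPM in *plt3* *plt7* (SD, n = 4 each). It was at 9.72 TPM in *ej2* *j2* replicate 1 and between 64.5 and 117.1 TPM in the other 3, and it ran from 13.4 to 75.5 TPM in *plt3* *plt7*. The single low *ej2* *j2* library lay under all 4 *plt3* *plt7* libraries. Its log2 difference was -0.81 (95% interval -2.59 to 0.98, adjusted p = 0.781, limma), and it ran from -1.59 without *ej2* *j2* replicate 1 to -0.43 without *plt3* *plt7* replicate 4.

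Solyc04g045560 had the smallest difference of the tested SBP-box genes. Its levels were 18.1, 5.92, 3.05 and 31.0 TPM in *ej2* *j2* and 6.56, 3.03, 23.3 and 13.7 TPM in *plt3* *plt7*, with ranges that almost coincide. The log2 difference was -0.16 (95% interval -1.86 to 1.54, adjusted p = 0.966, limma).

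In ID order Solyc03g114850 follows *EJ2* (Solyc03g114840) and Solyc12g038520 follows *J2* (Solyc12g038510), so each of these SBP-box genes could be set beside its MADS-box neighbour. Both SBP-box genes were expressed in all 8 libraries, including the *plt3* *plt7* libraries in which *EJ2* was listed at 0 and *J2* lay at 0.236 to 0.565 TPM. The pairing of *J2* with its ID rests only on the gene list, which places Solyc12g038520 next to *J2* in ID order. RefSeq has *J2* as a synonym on chromosome 12 but carries no ID of this kind. Both MADS-box genes passed the test (log2 difference -3.29, adjusted p = 0.000608 for *EJ2* and -2.66, adjusted p = 0.0161 for *J2*, limma). The *ej2* *j2* plants are mutated in both, so their levels there are those of mutant alleles. Whether the mutations changed these levels was not tested.

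Solyc03g114850 was at 48.0, 471.0, 221.0 and 64.0 TPM in *ej2* *j2* and at 375.6, 171.0, 107.4 and 236.4 TPM in *plt3* *plt7*. Each *plt3* *plt7* value fell inside the *ej2* *j2* range, which spanned 9.81-fold. The log2 difference was 0.58 (95% interval -1.22 to 2.38, adjusted p = 0.865, limma). It depended on single libraries and ran from 0.09 without *ej2* *j2* replicate 1 to 1.18 without *ej2* *j2* replicate 2. *EJ2* itself was at 15.2, 8.00, 12.6 and 3.67 TPM in *ej2* *j2* replicates 1 to 4.

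Solyc12g038520 varied little among *ej2* *j2* libraries, at 50.0, 32.8, 60.8 and 39.8 TPM. In *plt3* *plt7* it was at 95.2, 69.5, 10.6 and 129.6 TPM, above every *ej2* *j2* library in 3 replicates and below all of them in replicate 3. The log2 difference was 0.31 (95% interval -1.47 to 2.09, adjusted p = 0.935, limma), and -0.09 without *plt3* *plt7* replicate 4 (adjusted p = 0.990). *J2* was at 17.6, 22.8, 3.95 and 1.64 TPM in *ej2* *j2* replicates 1 to 4, a 13.9-fold range where that of Solyc12g038520 was 1.85-fold. The genes that follow the SBP-box genes in ID order, Solyc03g114860 and Solyc12g038523, had log2 differences of 0.26 (adjusted p = 0.918, limma) and -0.48 (adjusted p = 0.877, limma). At both places the lower level in *plt3* *plt7* thus passed the test for the MADS-box gene and for neither gene that follows it. The difference between neighbours was not tested.

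**Figure D3:**
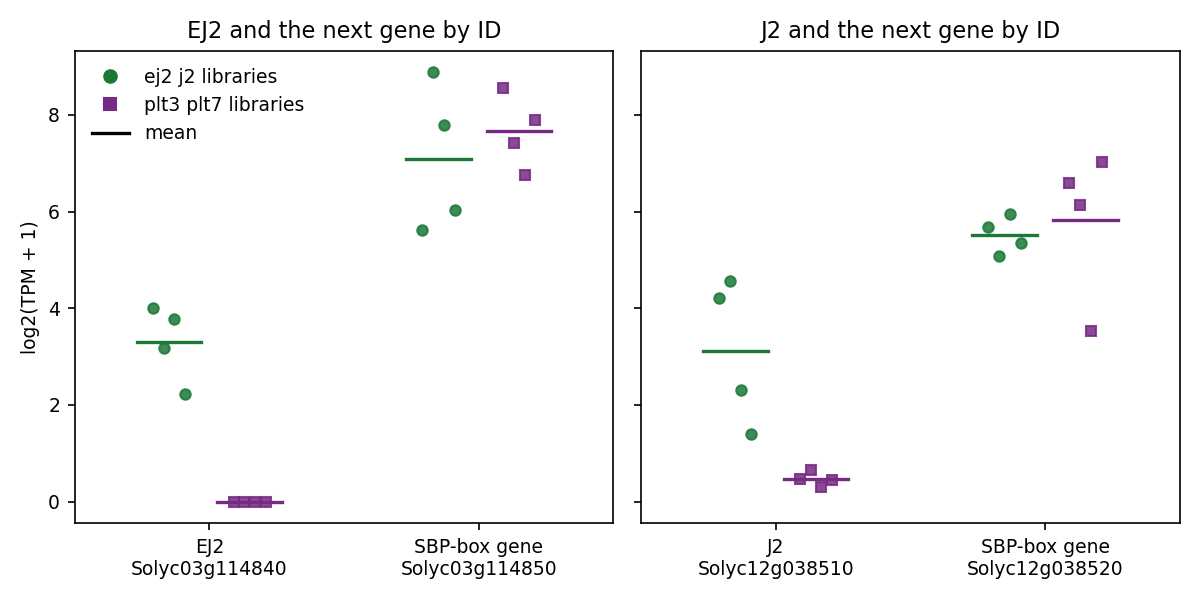
Levels of *EJ2* and *J2* and of the SBP-box gene next to each by ID, as log2(TPM + 1) in each library, with *ej2* *j2* as green circles, *plt3* *plt7* as purple squares and lines at the mean of 4 libraries. *EJ2* is at 0 and *J2* below 0.6 TPM in all *plt3* *plt7* libraries, while Solyc03g114850 lies between 107.4 and 375.6 TPM and Solyc12g038520 between 10.6 and 129.6 TPM there.

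Summed over the 10 genes, SBP-box transcripts made up 297.0, 812.7, 506.4 and 460.7 TPM in *ej2* *j2* and 988.5, 613.8, 713.3 and 510.9 TPM in *plt3* *plt7*. The means were 519 ± 215 and 707 ± 205 TPM (SD, n = 4 each), a ratio of 1.36, and the groups overlapped. The make-up varied from library to library within a genotype. Solyc03g114850 contributed between 13.9% and 58.0% of the sum in *ej2* *j2* and between 15.1% and 46.3% in *plt3* *plt7*. Solyc05g015840 contributed between 13.5% and 41.9% in *ej2* *j2* and between 15.4% and 73.5% in *plt3* *plt7*. The share of Solyc10g078700 was 4.33% to 14.4% in *ej2* *j2* and 0.397% to 1.84% in *plt3* *plt7*, without overlap. This share is built on the same TPM values of the gene, so it is no separate observation. Ratios within a library do not depend on its scaling. The ratio of Solyc10g078700 to Solyc05g015840 ran from 0.116 to 0.512 in *ej2* *j2* and from 0.0116 to 0.0514 in *plt3* *plt7*. It was the 1 ratio without overlap among the ratios of Solyc10g078700 to the 8 other SBP-box genes above 0 in every library. In the other 7 the genotypes overlapped. These ratios were chosen after the values had been seen and are given as a description.

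**Figure D4:**
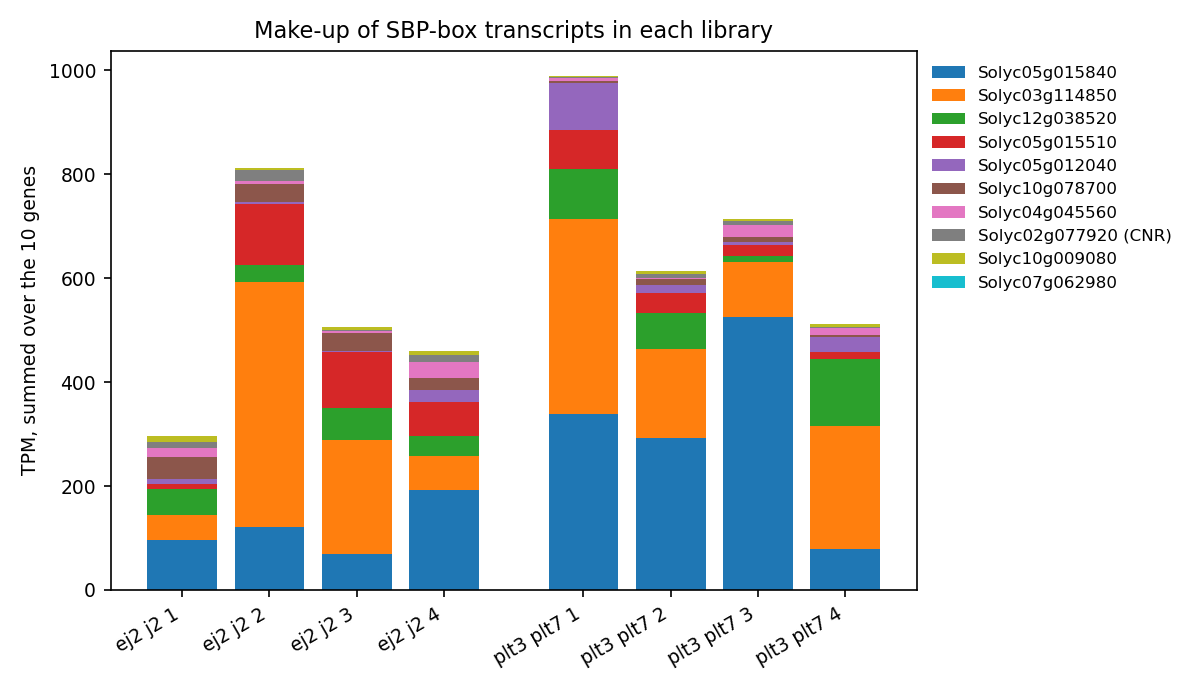
TPM summed over the 10 SBP-box genes in each library, with 1 colour per gene and the replicate number of each genotype under its bar. The sums run from 297.0 to 812.7 TPM in *ej2* *j2* and from 510.9 to 988.5 TPM in *plt3* *plt7*, and the brown band of Solyc10g078700 takes 4.33% to 14.4% of the *ej2* *j2* bars and at most 1.84% of the *plt3* *plt7* bars.

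Flowering genes of other families were read from the same fit. A list of 17 IDs of flowering and maturation genes outside the SBP family, set from general knowledge and with earlier results of these data known, had 13 tested members. Of these, 3 were lower in *plt3* *plt7* and none was higher (limma, adjusted p under 0.05), against 1.84% of all genes tested in either direction. *EJ2* and *J2* are among them. The study itself examined both in these genotypes, so they are no independent support for a direction of the list. The legend of its plot of these genes gives fewer *plt3* *plt7* samples than the 4 libraries used here. The remaining gene was Solyc02g081670, at 3.70, 8.76, 6.66 and 0.125 TPM in *ej2* *j2* and listed at 0 in each *plt3* *plt7* library (log2 difference -2.16, adjusted p = 0.0242, limma). The median difference of the list was -0.79, with 9 of 13 below 0, against a median of 0.05 and 9381 of 19544 below 0 over all genes tested. The list values include *EJ2* and *J2* and are given as a description, not as support for a direction. Such IDs were not checked against an annotation, so list names are labels.

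Among marker lists set in the same way, the 6 meristem genes were all tested, and none was higher or lower (limma, adjusted p under 0.05). At an unadjusted p under 0.05, 1 of the 6 passed (Solyc11g071380, log2 difference -1.74, limma), against 13.8% of all genes tested. Their summed level was 251 to 526 TPM in *ej2* *j2* and 235 to 818 TPM in *plt3* *plt7*. Within it, Solyc02g083950 was at 269 TPM in *ej2* *j2* replicate 4 and at 4.19 to 39.1 TPM in every other library. Of 9 floral organ genes, 4 were tested. Of these, 2 were lower in *plt3* *plt7* (limma, adjusted p under 0.05), against 1.84% of all genes tested in either direction. They were Solyc05g015750 (log2 difference -3.00, adjusted p = 0.00177, limma) and Solyc02g089200 (-3.88, adjusted p = 0.00101, limma). The other tested genes, Solyc02g084630 (-0.11, adjusted p = 0.981, limma) and Solyc08g067230 (-0.57, adjusted p = 0.727, limma), did not pass. Whether floral organ tissue differed between the genotypes was not tested. In *plt3* *plt7*, 6 of the 9 were listed at 0 in every library. Solyc05g015750 is one of the 6 and was above 0 in each *ej2* *j2* library, whereas the other 5 were at 2.22 TPM or less in *ej2* *j2* and 4 of them were listed at 0 in 3 of its libraries. The summed level of this list was 63.9 to 144 TPM in *ej2* *j2* and 19.0 to 97.3 TPM in *plt3* *plt7*, and the groups overlapped. Nearly all of the sum in *plt3* *plt7* was Solyc02g084630, at 18.1 to 96.0 TPM there and 22.3 to 105 TPM in *ej2* *j2*. The part of tissue make-up in the level of Solyc10g078700 was not tested. Of 6 green tissue genes, 4 were tested and none was higher or lower (limma, adjusted p under 0.05). At an unadjusted p under 0.05, 2 of the 4 passed, against 13.8% of all genes tested. Their directions were opposite (Solyc02g063150, log2 difference -1.80, and Solyc07g047850, 1.82). The sums were 197 to 974 TPM in *ej2* *j2* and 548 to 1178 TPM in *plt3* *plt7*, and 1 of the 6 was listed at 0 in every *plt3* *plt7* library.

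The 8 libraries held between 21397 and 22792 genes above 0. Replicate 2 of *ej2* *j2* stood apart on the second principal component (-150, against -7.72 to 73.7 in the other libraries), and its 10 highest genes took 10.7% of all TPM. It was also the *ej2* *j2* library with the highest Solyc03g114850 and *CNR*. Without it, the log2 differences were 1.18 for Solyc03g114850, -0.83 for *CNR* and -2.15 for Solyc10g078700 (adjusted p = 0.633, 0.736 and 0.231, limma).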

How the data were processed

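RNA of inflorescence meristems was sequenced after removal of ribosomal RNA. The authors trimmed reads with Trimmomatic, mapped the remainder to annotated tomato cDNAs using STAR 2.6.1, and deposited TPM values, which sum to a fixed total per library; depth is therefore unknown, and a few very high genes lower all others. All columns were used. Of 34109 genes, 8538 were at 0 in every library.

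Values were analysed as log2(TPM + 1), which understates changes of low genes, for the 19544 genes averaging 1 TPM or more. Moderated two-sided tests came from limma 3.58.1 (R 4.3.3), using eBayes with its intensity trend, and p-values were adjusted after Benjamini and Hochberg over all genes tested (threshold 0.05). The prior had 365 degrees of freedom against 6 residual ones, so standard errors mostly reflect genes of similar level. Single genes were also compared with an exact permutation test in Python 3.11.15 with scipy 1.17.1. The fit was tested on simulated data. The members and lists were chosen with earlier results of these data known. All 10 members were to be named, with the genes next to 2 of them by ID, and those of the other lists that passed. Some list genes that did not pass are named as well. No RefSeq entry (assembly SLM_r2.1) carries an ID of the deposited kind, so coordinates and sequences are not given. Per the methods the replication was biological, and the labels do not tie single libraries to plants. Alternatives were another pseudocount, other filters, scalings, weights and priors, a replicate block and leaving out each library.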

Additional observations from a re-analysis of the deposited data

Results flagged for a closer look

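Solyc07g062980 in *ej2* *j2* replicate 2, at 0.297 TPM, lay far above the other 3 libraries of its genotype, which were listed at 0, 0.0264 and 0 TPM. It was the 1 value set apart in this way among 20 groups of 4 libraries examined (10 SBP-box genes in both genotypes), where about 5% are set apart by chance. The gene was at 0.113, 0.167, 0 and 0 TPM in *plt3* *plt7*, so all its values are near 0 and the reads behind them are unknown.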

How the results depend on the processing

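The number of SBP-box genes that passed was 0 under all 18 alternatives (limma), 17 of them planned and 1, which used the spread of each gene alone, chosen after seeing the data. Solyc10g078700 had an unadjusted p under 0.05 in each, with log2 differences of -2.35 to -2.18 (adjusted p = 0.172 to 0.216) and of -2.42 to -1.98 without single libraries (adjusted p = 0.200 to 0.400). Solyc05g012040 had an unadjusted p under 0.05 without *ej2* *j2* replicate 4 or *plt3* *plt7* replicate 3. The sign changed for 2 of the 9 genes, and 7 kept it. Solyc04g045560 (-0.16; -0.66 to 0.33 without single libraries) was at 0.083 and 0.33 without *ej2* *j2* replicates 1 and 4 and at 0.28 without *plt3* *plt7* replicate 2, and Solyc12g038520 (0.31; -0.092 to 1.07) was lowest without *plt3* *plt7* replicate 4.

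The background count of 359 genes became 229 when genes had to average 5 TPM (fewer genes tested), 11 without a filter on low values, 131 with no intensity trend and 12 with the spread of each gene alone, which share less information between genes. It was 138 to 446 without single libraries, 181, 161 and 220 without *ej2* *j2* replicates 1, 3 and 4 and 153 and 138 without *plt3* *plt7* replicates 1 and 4, and 446 and 424 without *ej2* *j2* replicate 2 and *plt3* *plt7* replicate 3; the cause was not tested. A replicate block gave 303; same-numbered libraries did not deviate together (correlations of -0.033 to 0.013).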
